A study of Mus musculus with 62 samples.

Results

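Brown adipose tissue of mice that had received melanoma cells labelled cachectic (CAC) was compared between 4 and 2 weeks after injection, the opening interval of a cachexia time course. The 10 libraries, 5 at each time, were taken from the sample titles as those ending in CAC4wk or CAC2wk but not in NCAC4wk or NCAC2wk, out of 62 libraries in the series. The series also holds mice given non-cachectic melanoma cells (NCAC) and mock-injected mice (Con), each with 5 libraries at 2 and at 4 weeks, and all 3 arms at 6 and 8 weeks, which makes 12 groups. According to the labels every mouse was female and 2 months old, at each time point alike, and the melanoma lines are not named. The sample labels give the strain as C57BL6/J (C57BL/6J in the source name) and the series text gives NCI Ath/nude, so the immune status of the hosts is not settled. The extraction text also speaks of LLC cells at 3 weeks, a model that no label of these libraries names. The title number 56 stands on CAC replicate 1 and on Con replicate 1 at 4 weeks, and the groups here follow the sample descriptions. The labels call the libraries biological replicates without saying whether each is 1 mouse, so the p-values below refer to libraries and not to mice. In the gene tests the spread was estimated over all 62 libraries, NCAC and Con included, and not from the 10 compared libraries alone.

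Brown fat oxidises lipid and glucose to make heat, through the uncoupling protein UCP1 of its mitochondria, and it is driven by noradrenaline acting on beta-3 adrenergic receptors. Cachexia is the wasting of body tissue seen with some tumours, in which both adipose stores and muscle shrink. Cytokines of the interleukin-6 family signal through receptors that share the chain gp130, activate the transcription factor STAT3, and induce acute phase proteins, which are best known as liver products released into plasma during inflammation. STAT3 also induces its own inhibitor SOCS3, and STAT proteins bind DNA at palindromic sites.

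The deposited values are TPM, in which reads are scaled for transcript length and for the library total. The depth behind each value is therefore unknown, and no counting interval can be given. In the 10 libraries 11240 to 11778 genes reached 1 TPM. The markers of the labelled tissue were present: all 10 brown adipocyte markers passed the filter, and their summed level was 23300 to 28700 TPM at 2 weeks and 25500 to 35400 TPM at 4 weeks. T cell markers were near 0, with at most 0.136 TPM for Cd3d and 0.0627 TPM for Cd3e, and the T cell receptor genes Trac and Trbc2 reached at most 0.451 and 0.877 TPM. Of the melanocyte lineage markers Tyr was at 0 in all 10, Pmel, Mlana and Dct reached at most 0.778, 0.696 and 0.563 TPM, 2 of 10 passed the filter (Mitf and Sox10), and the list summed to 3.98 to 6.84 TPM at 2 weeks and 3.54 to 8.43 TPM at 4 weeks. Transcripts of the mitochondrial genome made up 56.2% ± 1.31 of TPM at 2 weeks and 55.9% ± 1.36 at 4 weeks (SD, n = 5 each), a difference of -0.29 points (exact permutation test over all 252 splits, 2-sided p = 0.754, where 0.00794 is the smallest p this design can give). Replicate 2 at 4 weeks stood apart from its group: 555 genes lay more than 1 log2 unit from the group median in it, against 83 to 174 in the other 4. Counts that rest on this library are therefore given with and without it.

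Only Itih4 passed the test between 4 and 2 weeks, and it rose. Of 12581 genes tested this 1 gene is 0.00795%, and 0 genes (0%) were called lower. The test was limma on log2(TPM + 1), fitted to all 62 libraries, with Benjamini-Hochberg adjustment over all tested genes and a call at an adjusted p under 0.05. At an unadjusted p under 0.05 stood 1129 genes (8.97%), of which 459 (3.65%) had higher and 670 (5.33%) lower values at 4 weeks. The number was 635 without replicate 2 of 4 weeks and 700 without replicate 1 of 2 weeks. Across the tested genes the log2 differences had a median of -0.01. In 71 genes (0.564%) every 4 week library was above every 2 week library, and in 96 (0.763%) every one was below. Without replicate 2 of 4 weeks these counts were 91 (0.723%) and 146 (1.16%). The genes named below other than Itih4 did not pass the adjusted test, so they are described by their values, and those outside the naming rule given with the methods were chosen after their values were seen. In bulk tissue fewer cells of a type and less RNA per cell cannot be told apart.

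Itih4 encodes the heavy chain 4 of the inter-alpha-trypsin inhibitor family, a secreted acute phase protein (chromosome 14, 30886476 to 30902353, plus strand, GRCm38). At 2 weeks its level was 0.902, 3.21, 31.5, 12.1 and 1.67 TPM in replicates 1 to 5. At 4 weeks it was 28.1, 812, 16.5, 296 and 21 TPM. The 4 week libraries span a wide range, with replicates 2 and 4 far above the other 3, and the groups overlap only because replicate 3 of 2 weeks lies above 3 of the 4 week libraries. The log2 difference was 3.64 (SE 0.67, 95% interval 2.30 to 4.97, adjusted p = 0.0157 by limma), a 12.4-fold difference on the TPM + 1 scale. This SE and interval rest on the spread over all 62 libraries, NCAC and Con included. The call was lost in the limma fit of the compared groups alone (adjusted p = 0.54). It was also lost with library weights (log2 difference 2.14, adjusted p = 0.138). The call did not survive leaving out replicate 1, 2 or 5 of 2 weeks (adjusted p = 0.286, 0.1 and 0.0822) or replicate 2 or 4 of 4 weeks (adjusted p = 0.481 and 0.31), and without replicate 2 of 4 weeks the log2 difference was 2.79.

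In the other arms Itih4 stayed near 1 TPM: 0.343 to 1.63 and 0.772 to 2.39 TPM in NCAC at 2 and 4 weeks, and 0.777 to 2.05 and 0.366 to 2.24 TPM in Con. At 2 weeks CAC replicates 2, 3 and 4 were already above every one of these NCAC and Con libraries, while replicate 1 and replicate 5 lay within their range. At 4 weeks all 5 CAC libraries were above all of them. The step from 2 to 4 weeks was larger in CAC than in Con by 3.70 log2 units (SE 0.94, adjusted p = 0.041 by limma). This call was lost in 18 of 31 alternatives (adjusted p 0.0154 to 0.529 over all of them), such as the fit of the compared groups alone (adjusted p = 0.168) and those without CAC replicate 1 of 2 weeks (0.144) or CAC replicate 2 (0.0793) or 4 (0.0795) of 4 weeks. Against the NCAC step the difference was 3.44 (SE 0.94), which was not called (unadjusted p = 0.000581, adjusted p = 0.999).

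The sequence before the Itih4 start is shown because this is the gene the comparison turns on, and because it holds the palindrome TTCNNNGAA to which STAT proteins bind, printed in capitals. It covers chr14:30886226-30886475 on the plus strand of GRCm38.p6, from RefSeq, and the capitals lie 51 to 43 bases before the start.
Itih4: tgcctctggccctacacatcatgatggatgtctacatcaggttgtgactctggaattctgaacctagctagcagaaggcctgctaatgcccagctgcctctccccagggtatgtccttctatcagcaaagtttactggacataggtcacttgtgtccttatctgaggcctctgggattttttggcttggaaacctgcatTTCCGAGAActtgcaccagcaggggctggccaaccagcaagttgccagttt
The STAT feedback gene Socs3 also holds the palindrome, in capitals in this stretch of chr11:117969502-117969531 on the minus strand, 154 to 146 bases before the RefSeq start and inside the longer GENCODE gene model.
Socs3: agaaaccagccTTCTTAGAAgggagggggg
The palindrome is its own reverse complement, so a match counts for both strands, and overlaps with other motifs were not searched. It occurred in 2726 of 32851 RefSeq windows of 300 bases around a start (8.3%), and in 4 of the 24 windows (16.7%) found for 21 of the 26 genes of the acute phase and STAT3 response list, those of Itih4, Socs3, Fga and Fgb. Stat3, Osmr, Lrg1 and Lcn2 have no match in their windows, and C4b and Hp are not in the table. A match is a description of the letters only, and no measurement of binding is among these data.

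**Figure D1:**
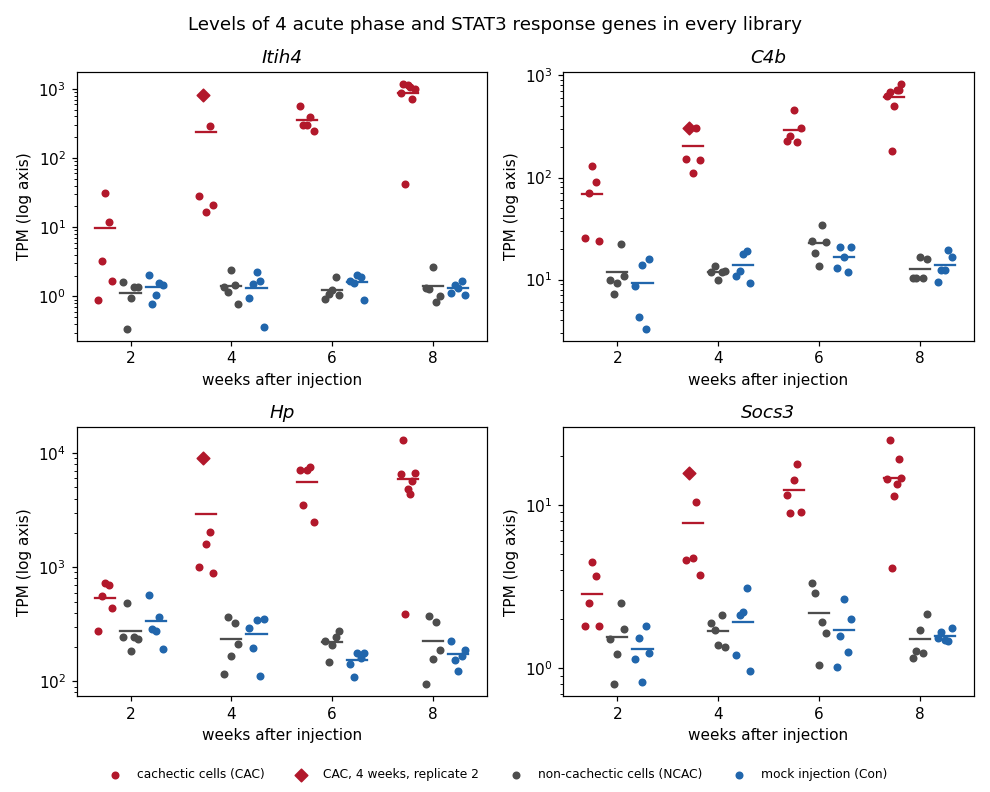
TPM of Itih4, C4b, Hp and Socs3 (log axes) in every library against weeks after injection, with 1 point per library, a horizontal line at each group mean, and the 3 arms side by side. The CAC points of 4 weeks spread from 16.5 to 812 TPM for Itih4, with replicate 2 drawn as a diamond, while NCAC and Con stay near 1 TPM at each time.

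The acute phase and STAT3 response list, to which Itih4 belongs, lay mostly on the higher side at 4 weeks. Of its 26 genes 25 were tested, 1 was called, 10 had an unadjusted p under 0.05 on the higher side (background 3.65%) and 0 on the lower side (background 5.33%), and 22 of 25 differences were positive. The median log2 difference of the list was 0.55, against -0.01 over all tested genes, 0.03 for the list in NCAC and 0.18 in Con. Without replicate 2 of 4 weeks the count was 8 and the median 0.32, and over all 10 ways of leaving out 1 CAC library the count was 8 to 11 and the median 0.32 to 0.70.

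Among the receptors and signal carriers, Osmr encodes the receptor chain for oncostatin M and Stat3 the transcription factor itself. Osmr stood at 2.11, 2.94, 4.06, 3.50 and 2.34 TPM at 2 weeks and at 4.01, 15.9, 4.59, 9.86 and 3.51 TPM at 4 weeks (log2 difference 0.93, SE 0.24, adjusted p = 0.229 by limma). Stat3 stood at 12.2, 13.3, 20.4, 21.6 and 12 TPM and then at 22.3, 50.4, 22.7, 33.5 and 18.1 TPM (0.79, SE 0.21, adjusted p = 0.229). In both genes replicates 2 and 4 are the highest of the 4 week libraries, as for Itih4, and the groups overlap through replicate 3 of 2 weeks, and for Stat3 through replicate 4 as well. The shared receptor chain Il6st differed by 0.21 and the interleukin-6 receptor Il6ra by 0.44, with only replicate 2 of 4 weeks, at 8.80 TPM of Il6ra, outside the range of 1.88 to 2.91 TPM of the other 9.

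Of the feedback and nuclear targets, Socs3 followed the same libraries. It stood at 1.81, 2.51, 4.48, 3.69 and 1.81 TPM at 2 weeks and at 4.57, 15.6, 4.71, 10.4 and 3.73 TPM at 4 weeks, where 4 of the 5 libraries are above all of 2 weeks. Its log2 difference was 1.06 (SE 0.28, adjusted p = 0.233). Bcl3, a nuclear partner of NF-kB, differed by 0.59 (adjusted p = 0.549) and the transcription factor gene Cebpd by 0.53 (adjusted p = 0.67), whereas Cebpb and the kinase gene Pim1 differed by 0.14 and -0.17.

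The secreted products of the list came next to Itih4 in size. C4b, complement component 4B (chromosome 17, 34728380 to 34743882), stood at 25.8, 71.1, 131, 90.5 and 23.8 TPM at 2 weeks and at 153, 304, 110, 309 and 148 TPM at 4 weeks. Only replicate 3 of 4 weeks falls within the 2 week range. The log2 difference was 1.74 (SE 0.37, 95% interval 1.00 to 2.48, adjusted p = 0.0764), which was not called. Over the alternatives the adjusted p ran from 0.00856 without replicate 3 of 2 weeks to 0.595 without replicate 1 of 2 weeks, and it was 0.487 without replicate 2 and 0.31 without replicate 4 of 4 weeks. Its near-identical neighbour C4a gave 1.44 (SE 0.35, adjusted p = 0.192). The 2 genes share most of their sequence, so the division of reads between them is uncertain.

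Hp encodes haptoglobin, the plasma protein that binds free haemoglobin. Its 2 week levels were 278, 558, 725, 701 and 438 TPM and its 4 week levels 1010, 9000, 1590, 2030 and 891 TPM, so the groups did not overlap. The log2 difference was 1.91 (SE 0.52, adjusted p = 0.283), with replicate 2 far above every other library. Lrg1, a leucine-rich plasma glycoprotein, did not overlap either, at 34.4, 66.4, 78.5, 63.7 and 52.1 TPM and then 101, 443, 138, 181 and 82.2 TPM (1.44, SE 0.38, adjusted p = 0.233). These were the 2 genes of 25 in the list without overlap in the higher direction (background 0.564%), and none lay without overlap in the lower direction.

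Other acute phase genes differed less or were spread too widely. The protease inhibitor gene Serpina3n was at 19.7 to 62.4 TPM at 2 weeks and at 51.2, 250, 26.9, 112 and 22.4 TPM at 4 weeks (0.66, SE 0.52, adjusted p = 0.748), with the groups overlapping in 3 of the 5 later libraries. The siderophore-binding Lcn2 gave 1.26 (SE 0.78, adjusted p = 0.656), and complement C3 gave 0.55 (adjusted p = 0.517). Orm1 and Cp, for orosomucoid and ceruloplasmin, gave -0.12 and -0.03, and Fga, for a fibrinogen chain, reached at most 0.285 TPM in the 10 CAC libraries. Serpina3n belongs to a family of close paralogs, which makes its values uncertain.

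**Figure D2:**
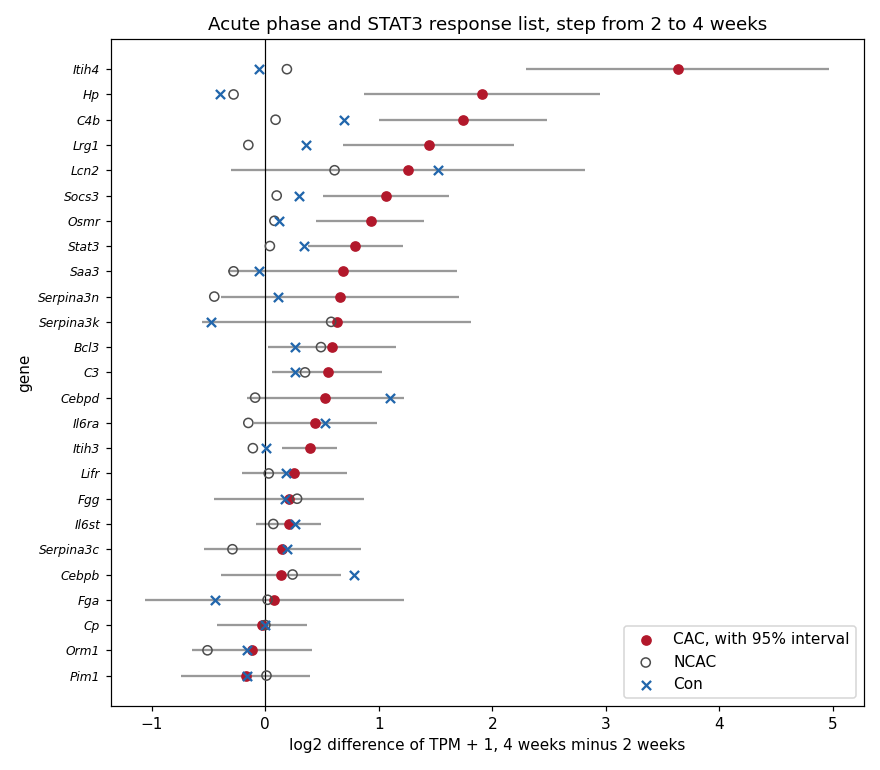
Log2 difference of TPM + 1, 4 weeks minus 2 weeks, for the 25 tested genes of the acute phase and STAT3 response list, with filled points and 95% intervals for CAC, open circles for NCAC and crosses for Con. Itih4 lies at 3.64, Hp at 1.91 and C4b at 1.74, while the NCAC and Con values of these 3 genes lie between -0.40 and 0.69.

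Replicate 2 of 4 weeks and replicate 3 of 2 weeks were the highest of their groups for most list members. At 4 weeks replicate 2 was the highest for 16 of the 25 list members, against 35.4% of all tested genes. Replicate 4 was the highest for 5, near its share of 20.6% of all tested genes. At 2 weeks replicate 3 was the highest for 16 and replicate 5 the lowest for 14, against 14.2% and 32.5% of all tested genes.

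Glucocorticoid-responsive genes were mostly highest in replicate 2 of 4 weeks, which led for 14 of the 17 tested genes of the list, whereas replicate 4 led for 1. Mt2, a metal-binding protein induced by glucocorticoids and by cytokines, stood at 81.3, 66.3, 224, 70.1 and 83.2 TPM at 2 weeks and at 248, 2110, 161, 677 and 126 TPM at 4 weeks (log2 difference 1.99, SE 0.52, adjusted p = 0.233). Fkbp5, a co-chaperone of the glucocorticoid receptor, stood at 4.30, 5.87, 5.91, 3.50 and 1.21 TPM and then at 6.36, 133, 8.32, 20.0 and 1.57 TPM (1.53, SE 0.71, adjusted p = 0.544). Replicates 2 and 4 lead in both of these genes, and for Fkbp5 replicate 5 of 4 weeks is inside the 2 week range. Of the 17 tested genes of the glucocorticoid list 3 lay on the higher side and 1 on the lower with an unadjusted p under 0.05 (background 3.65% and 5.33%). The median was 0.49, and without replicate 2 these became 2, 0 and 0.15.

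Immediate early genes, which respond within minutes to stimulation and many of which encode transcription factors, were high in replicate 2 of 4 weeks alone. It was the highest 4 week library for 20 of 21 tested members: Nr4a1 stood at 495 TPM in it and at 4.30 to 12.6 TPM in the other 4, and Fosb at 28.1 against 0.0824 to 0.535 TPM. At 2 weeks Nr4a1 ranged from 3.83 to 27.2 TPM. With this library 6 members had an unadjusted p under 0.05 on the higher side (background 3.65%) and the list median was 0.62, and without it 0 members did and the median was 0.18.

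Clock genes differed between libraries of the same time point as well. Arntl, which drives the clock together with CLOCK, stood at 2.55, 1.19, 0.937, 4.00 and 6.45 TPM at 2 weeks and at 0.687, 0.449, 0.413, 8.28 and 1.12 TPM at 4 weeks. Its target Dbp was lowest where Arntl was highest, at 14 TPM in replicate 5 of 2 weeks and 12.1 TPM in replicate 4 of 4 weeks, against 51.6 to 84.4 TPM in the other 8. Per2, a clock repressor, was at 41.8 and 36.4 TPM in replicates 2 and 4 of 4 weeks and at 2.98 to 21.3 TPM in the other 8. Of 18 tested clock genes 2 stood higher and 0 stood lower with an unadjusted p under 0.05 (background 3.65% and 5.33%). Without replicate 2 of 4 weeks 0 stood on either side, and over single libraries left out 0 to 5 stood higher. Clock genes thus stood apart in replicate 4 of 4 weeks, which carried the second largest level of Itih4, and in replicate 5 of 2 weeks. These were the lowest of their groups for 8 and 10 of the 18 genes, against 22% and 32.5% of all tested genes. The part of this in the differences above was not tested.

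The collagens and other matrix genes lay on the lower side. Of 30 tested genes of the extracellular matrix list 0 were called, 9 stood lower and 1 stood higher with an unadjusted p under 0.05 (background 5.33% and 3.65%), 6 had every 4 week library below every 2 week library (background 0.763%), and the median was -0.33. The same list gave -0.03 in NCAC and 0.36 in Con. Without replicate 2 of 4 weeks 7 were lower and 0 higher, and the median was -0.30. Replicate 1 of 2 weeks was the highest of its group for 23 of the 30 genes, against 24.8% of all tested genes, and without it 7 were lower and the median was -0.25.

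Col15a1 encodes a collagen of basement membranes (chromosome 4, 47208161 to 47313167). It stood at 32.5, 23.4, 24.9, 23.9 and 28.7 TPM at 2 weeks and at 16.7, 3.43, 8.57, 10.5 and 18 TPM at 4 weeks, with no overlap. Its log2 difference was -1.31 (SE 0.32, 95% interval -1.95 to -0.68, adjusted p = 0.192 by limma). Col6a1, a chain of the microfibril-forming collagen VI, stood at 34.8 to 50.1 TPM and then at 32.6, 18.6, 19.4, 23.9 and 31.2 TPM (-0.76, adjusted p = 0.35). Its partner chains Col6a2 and Col6a3 gave -0.89 and -0.72, and the fibril-nucleating Col5a1 gave -0.75, all 3 without overlap. Sparc, a collagen-binding matrix protein and the most abundant gene of the list, gave -0.35, with 326 to 371 TPM at 2 weeks and 239 to 307 TPM at 4 weeks.

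The main fibrillar collagens were less separated, since replicate 1 of 4 weeks kept levels like those of 2 weeks. Col1a1 gave -0.70 (adjusted p = 0.645), with 50.8, 19.4, 16.7, 28.5 and 35.9 TPM at 4 weeks against 37.5 to 67.3 TPM. Col3a1 gave -0.69 (adjusted p = 0.66). The matrix-degrading protease Mmp3 was the 1 list member with an unadjusted p under 0.05 on the higher side. Its difference was 0.99 (adjusted p = 0.535). Timp1, Timp3 and the cross-linking enzyme Lox were at 0.40, 0.37 and 0.10.

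Fibroblast and adipocyte progenitor markers, which include some of these collagens, lay on the lower side with the matrix genes. Their 12 members had a summed level of 533 to 824 TPM at 2 weeks and 374 to 647 TPM at 4 weeks, 4 stood lower and 0 stood higher with an unadjusted p under 0.05 (background 5.33% and 3.65%), and the median was -0.38. Replicate 1 of 2 weeks was the highest of its group for 10 of the 12, and without it 2 stood lower and the median was -0.31. The receptor gene Pdgfra gave -0.42 and the surface protease gene Fap -0.39, the latter without overlap (background 0.763%), while Pi16, Cd34 and Dcn gave -0.11, -0.11 and -0.19. The part of these cells in the matrix differences was not tested. Further matrix-related genes were among the 10 smallest p-values on the lower side at a minimum level of 5 TPM, with predicted genes left out. Among them were Ogn (-0.83, adjusted p = 0.283) and Ecm2 (-0.49, adjusted p = 0.283), and Col5a3 gave -0.88 (adjusted p = 0.283). Fgf10, a growth factor that fibroblast-like cells supply to adipocyte precursors, stood at 5.67 to 11.3 TPM and then at 4.56, 1.39, 2.01, 4.34 and 3.34 TPM without overlap (-1.10, SE 0.28, adjusted p = 0.229).

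**Figure D3:**
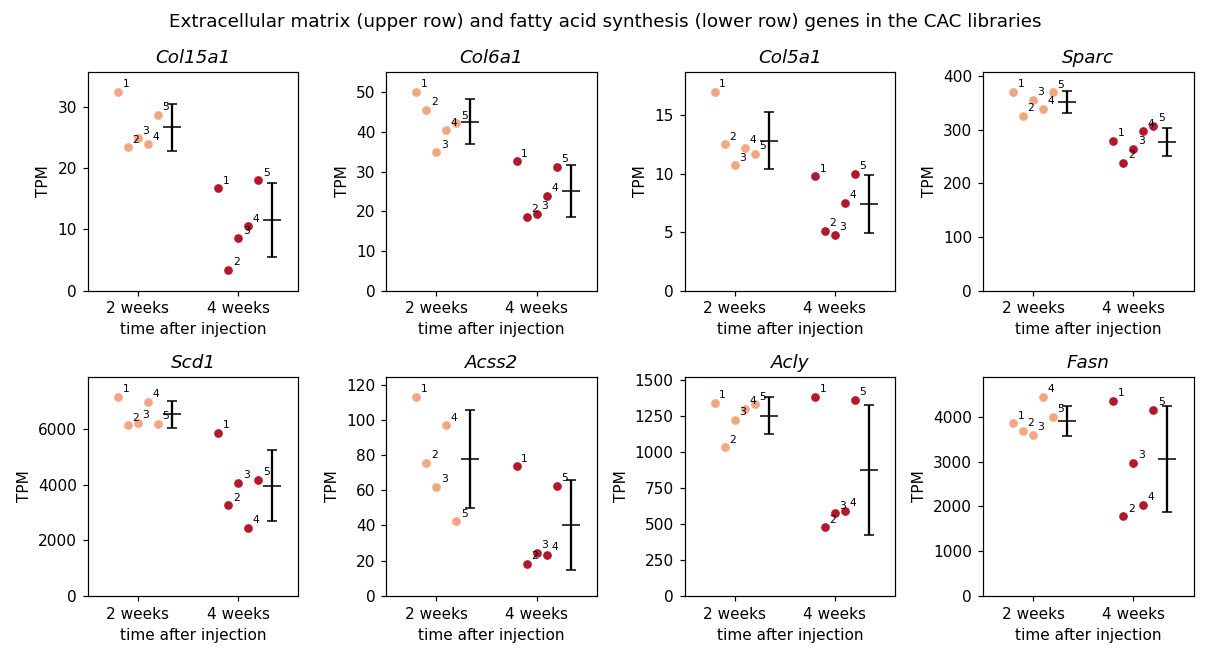
TPM of 4 matrix genes (upper row) and 4 fatty acid synthesis genes (lower row) in the 5 CAC libraries of each time point, numbered by replicate, with the mean and SD as a bar beside them. The 2 groups do not overlap for the 4 matrix genes and for Scd1, while replicates 1 and 5 of 4 weeks remain at the 2 week level for Acly and Fasn.

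Fatty acid synthesis, by which brown fat refills its lipid stores, gave lower values in some of the 4 week libraries. Of 20 tested genes 0 were called, 8 stood lower and 0 stood higher with an unadjusted p under 0.05 (background 5.33% and 3.65%), and the median was -0.45, against -0.08 in NCAC and -0.10 in Con. Without replicate 2 or without replicate 4 of 4 weeks only 2 were lower, with medians of -0.29 and -0.36. The extremes over single CAC libraries left out were 2 and 11.

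Acly, which makes cytosolic acetyl-CoA, stood at 1340, 1030, 1220, 1300 and 1330 TPM at 2 weeks and at 1380, 477, 573, 591 and 1360 TPM at 4 weeks. The 4 week libraries thus lay at 2 levels, with replicates 1 and 5 like the earlier group and replicates 2, 3 and 4 below it. The log2 difference was -0.66 (SE 0.31, adjusted p = 0.548). Fasn, the fatty acid synthase, was at 4360, 1780, 2970, 2030 and 4160 TPM against 3600 to 4440 TPM (-0.44, adjusted p = 0.529), and Acaca, the acetyl-CoA carboxylase, at 496, 245, 318, 204 and 506 TPM against 417 to 520 TPM (-0.54, adjusted p = 0.501). Acss2, which activates acetate, gave -1.08 (adjusted p = 0.379) with the same 3 libraries lowest.

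Scd1, the desaturase that makes monounsaturated fatty acids, was the 1 gene of this list without overlap (background 0.763%), at 6150 to 7170 TPM and then at 5880, 3260, 4080, 2450 and 4190 TPM (-0.78, SE 0.28, adjusted p = 0.411). Its difference in NCAC was -1.07 and in Con -0.66, both also negative. The regulator genes Srebf1 and Mlxipl gave 0.20 and -0.07, and Elovl3, Elovl6 and Gpam gave 0.09, -0.19 and 0.04. Eci3 encodes an enzyme of fatty acid oxidation. Leaving out predicted genes and those with a mean under 5 TPM at 2 weeks, it had the smallest p on the lower side. It stood at 9.90, 15.1, 11.8, 11.1 and 8.78 TPM and then at 6.48, 4.95, 3.77, 4.71 and 6.59 TPM (-0.97, SE 0.23, adjusted p = 0.183). The 21 genes of the fatty acid oxidation list had a median of 0.05.

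The heat-producing programme gave no call. Ucp1 stood at 4530, 3010, 5890, 4490 and 8070 TPM at 2 weeks and at 3450, 4770, 6070, 6640 and 5020 TPM at 4 weeks, all within the 2 week range. Its log2 difference was 0.04 (SE 0.27). The 95% interval of -0.51 to 0.59 is the limit that the fit to all 62 libraries sets on a difference in either direction. Dio2, which activates thyroid hormone, gave 0.57 (interval -0.73 to 1.88) and Ppargc1a, a coactivator of mitochondrial genes, 0.03. Of the 22 thermogenesis genes 3 stood higher and 1 stood lower with an unadjusted p under 0.05 (background 3.65% and 5.33%), with a median of 0.04.

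The 1 lower member was Adrb3, the beta-3 adrenergic receptor. It stood at 174, 90.2, 121, 98.3 and 153 TPM at 2 weeks and at 62.1, 32, 66.4, 37.1 and 97.0 TPM at 4 weeks, where only replicate 5 reaches the earlier range. The log2 difference was -1.16 (SE 0.36, 95% interval -1.88 to -0.45, unadjusted p = 0.00195, adjusted p = 0.349). In NCAC the difference was 0.31 and in Con -0.48, and the CAC step differed from the NCAC step by -1.47 (unadjusted p = 0.00528, adjusted p = 0.999). The lipid droplet gene Cidea was the 1 thermogenesis gene of 22 without overlap on the higher side (background 0.564%), at 1520 to 1690 TPM and then 1850 to 2090 TPM (0.28, adjusted p = 0.485).

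Mitochondrial energy genes differed little. The 13 transcripts of the mitochondrial genome had a median of -0.02 and differences from -0.11 to 0.04, the 30 nuclear genes of the respiratory chain and ATP synthase a median of 0.01, and the 16 genes of the tricarboxylic acid cycle 0.02. Lipolysis and lipid droplet genes had a median of 0.16, with the lipase gene Pnpla2 at 0.19 (interval -0.07 to 0.44). Among adipokines, leptin (Lep) gave -1.15 (adjusted p = 0.542), with 9.49 to 41.3 TPM at 2 weeks and 5.84 to 10.3 TPM at 4 weeks, and gave -1.22 in NCAC. Adiponectin (Adipoq) gave -0.13 (interval -0.39 to 0.13). The retinol carrier Rbp4 gave -0.58 without overlap (background 0.763%).

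Markers of blood and of immune cells were read for the cells the tissue can hold. Erythroid transcripts did not overlap in summed level, at 1140 to 2240 TPM and then 2540 to 4750 TPM, and all 5 tested genes had positive differences with a median of 1.14. None passed the test: Hba-a1 gave 1.14 (adjusted p = 0.598), Hbb-bs 1.09 (adjusted p = 0.583) and Alas2, the red cell enzyme of haem synthesis, 1.27 (adjusted p = 0.458). Each of these 3 was without overlap on the higher side (background 0.564%). The list median was 0.56 in NCAC and 0.31 in Con. Globin genes come in near-identical copies, so values of single members are uncertain.

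Neutrophil genes were low throughout, with a summed level of 4.47 to 9.09 TPM at 2 weeks and 7.58 to 28.1 TPM at 4 weeks. Of 5 tested members 3 stood higher and 0 stood lower with an unadjusted p under 0.05 (background 3.65% and 5.33%). The median was 0.56, against 0.28 in NCAC and 0.2 in Con, and Mmp9 gave -0.27. Without replicate 2 of 4 weeks 2 stood higher and the median was 0.38. S100a9 gave 1.18 (adjusted p = 0.349) in CAC and 0.99 in NCAC, and the defining gene Ly6g reached at most 0.230 TPM. Macrophage genes had a median of 0.19 with 0 of 11 at an unadjusted p under 0.05 (background 8.97%). Of 14 tested chemokine genes 2 stood higher, Ccl8 and Cxcl13, and 1 stood lower with an unadjusted p under 0.05 (background 3.65% and 5.33%). Of the 14 differences 6 were negative, and the median was 0.11, against 0.08 in NCAC and 0.3 in Con. Ccl8 gave 1.83 (SE 0.50, unadjusted p = 0.00052, adjusted p = 0.283 by limma), at 3.27, 8.47, 17.2, 9.03 and 3.14 TPM and then 42.5, 42.2, 12.2, 40.1 and 16.3 TPM. Cxcl13, a B cell attractant, stood at 83.1 and 21.3 TPM in replicates 2 and 4 of 4 weeks and at 1.12 to 4.70 TPM in the other 8. These 2 libraries are again those with the most Itih4. The interferon and antigen presentation lists had medians of -0.03 and 0.05.

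Skeletal muscle transcripts, which can come with brown fat at dissection, differed widely between libraries. Their summed level was 17500, 7780, 4030, 6560 and 1570 TPM at 2 weeks and 3770, 2900, 2210, 3670 and 2560 TPM at 4 weeks, and all 17 differences were negative with a median of -0.88. Without replicate 1 of 2 weeks the median was -0.45. With the mean of these genes as a covariate, a fit added after the data were seen, Itih4 kept its call at a log2 difference of 3.55 (adjusted p = 0.0315). The matrix list had 7 lower genes at an unadjusted p under 0.05 in this fit and 9 without the covariate, with medians of -0.27 and -0.33. Replicate 1 of each time was the highest of its group for 14 of 14 markers of skin and mammary gland epithelium. Its share of all tested genes was 24.8% and 20.7%. The part of these tissues in the matrix differences was not tested.

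**Figure D4:**
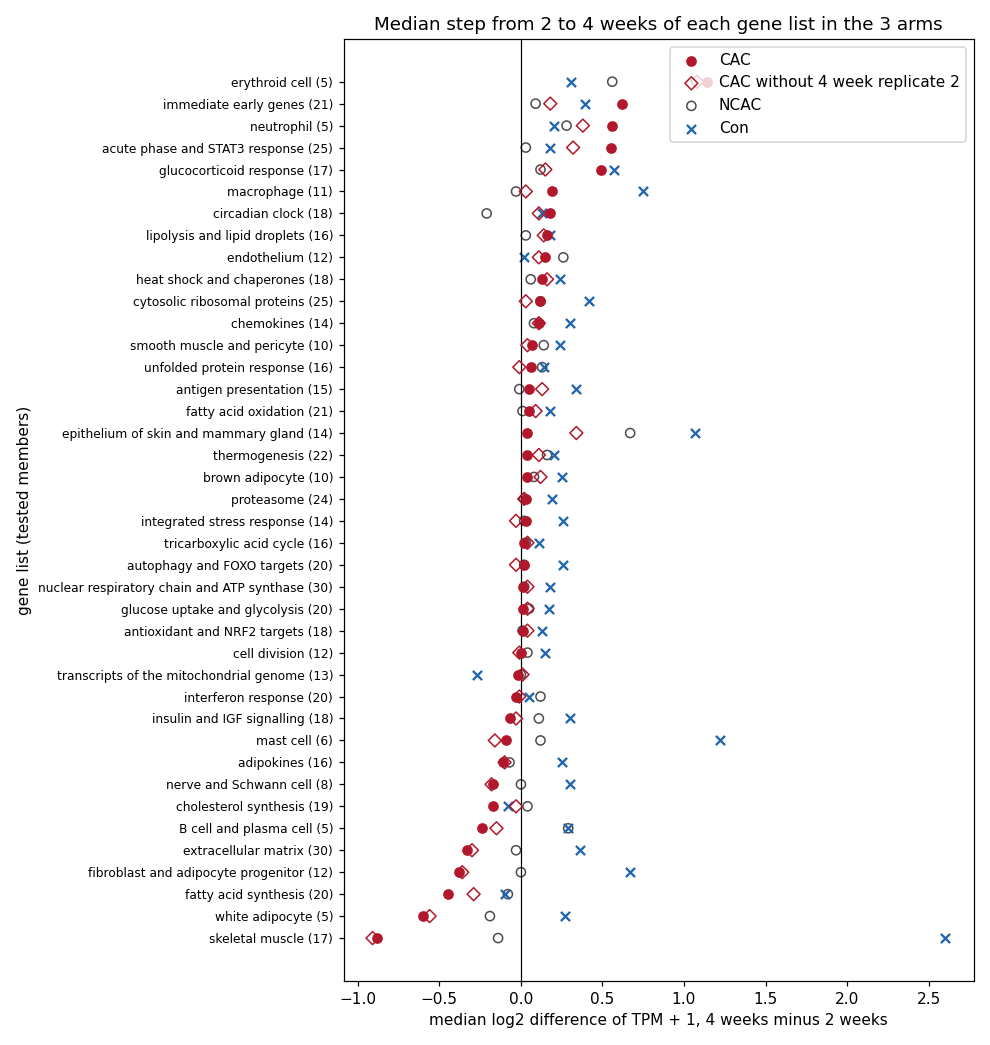
Median log2 difference, 4 weeks minus 2 weeks, of the 40 gene lists with at least 5 tested members, for CAC (filled points), CAC without replicate 2 of 4 weeks (diamonds), NCAC (circles) and Con (crosses). In CAC the medians run from -0.88 for skeletal muscle to 1.14 for erythroid genes, and removal of replicate 2 brings immediate early genes from 0.62 to 0.18.

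The same interval was read in the other arms to see what the cachectic arm held beyond time itself. In NCAC 0 genes (0%) were called. There 328 genes (2.61%) had an unadjusted p under 0.05, 223 (1.77%) on the higher side and 105 (0.835%) on the lower, and the groups did not overlap in 72 genes (0.572%) on the higher side and in 31 (0.246%) on the lower. In Con 3 genes (0.0238%) were called higher, Dpt, Gm7293 and Cradd, and 3186 (25.3%) had an unadjusted p under 0.05, with a median of 0.17 over all genes. Of these 3133 (24.9%) lay on the higher side and 53 (0.421%) on the lower, and the Con groups did not overlap in 270 genes (2.15%) and 13 genes (0.103%) in the same order. The Con group of 4 weeks was not uniform: in its libraries 3 and 4 mitochondrial transcripts made up 39.6% and 39.7% of TPM against 57.1% to 58.7% in the other 3. Skeletal muscle transcripts summed to 559 to 23200 TPM across Con at 4 weeks, and the number of calls ranged from 0 to 1952 as single Con libraries were left out, the most without replicate 1 of 4 weeks. The unadjusted counts of the arms depend on the spread shared by all 62 libraries. With each arm's 2 groups fitted alone, 1127 genes in CAC, 702 in NCAC and 1707 in Con had an unadjusted p under 0.05. In Con the count was 602 without libraries 3 and 4 of 4 weeks.

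The test of the difference between steps gave 0 calls for CAC against NCAC (0%; smallest adjusted p 0.999), with 458 genes (3.64%) at an unadjusted p under 0.05, 148 (1.18%) with a higher and 310 (2.46%) with a lower step in CAC. For CAC against Con it gave 154 calls (1.22%): Itih4 with a larger step in CAC, and 153 genes (1.22%) with a smaller one. At an unadjusted p under 0.05 these were 54 (0.429%) and 2022 (16.1%), together 2076 (16.5%). With predicted genes and those under the minimum level of 5 TPM left out, the lowest calls by size were the muscle genes Mb (-3.60), Sypl2 (-3.02) and Asb2 (-2.92), with Padi2 (-3.56) and Hspb6 (-2.93). All 154 calls were lost without Con libraries 3 and 4 of 4 weeks and with the skeletal muscle covariate, where Itih4 gave 3.96 (adjusted p = 0.106) and 3.35 (adjusted p = 0.529). Single libraries left out gave 1 to 738 calls. The differences from NCAC and from Con use the same 10 CAC libraries.

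At the later times the level of Itih4 in CAC was 245 to 563 TPM at 6 weeks and 41.9 to 1180 TPM at 8 weeks. Replicates 2 and 4 of 4 weeks, at 812 and 296 TPM, thus lie within the range of the 6 or 8 week libraries, while the other 3, at 16.5 to 28.1 TPM, lie below all of both. For C4b and Socs3 the 6 week ranges were 224 to 456 TPM and 8.89 to 17.8 TPM. The same 2 libraries lie within these ranges, and the other 3 lie below them. Other genes differed in this. Replicate 4 of 4 weeks lay below the 6 week range for Hp, Lrg1 and Mt2, at 2030, 181 and 677 TPM. The lowest 6 week values of these genes were 2490, 189 and 788 TPM. Replicate 2 lay above the 6 week range for Itih4, Hp, Lrg1, Stat3 and Osmr, such as Hp at 9000 TPM against at most 7540 TPM.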

How the data were processed

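The authors deposited 1 table of TPM for 47643 genes in 62 RNA-seq libraries, each column summing to 1e+06. Per the labels' protocols, RNA was extracted with Trizol and libraries were made with a stranded mRNA kit. The genome build is mm10, per the submitters' processing notes, and the aligner, quantifier and annotation are not given in the sources used here. From these values log2(TPM + 1) was computed for the 12581 genes (26.4%) that reached 1 TPM in 5 or more of the libraries. A model with 1 mean per group was fitted to all 62 libraries with limma 3.58.1 in R 4.3.3, with a trended variance prior and Benjamini-Hochberg adjustment within each of 5 contrasts. The fit was tested on simulated normal values with the same spread in every group, so groups of unequal spread were not tested. A symbol was found in the gene name table for 45134 genes (94.7%). Positions are from GENCODE M21 and promoter windows from RefSeq.

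The 42 gene lists, the naming rule and the comparison were chosen with earlier results of these data known. Of 697 listed genes 696 were in the file and 611 were tested. Predicted and unnamed genes were left out where the naming rule ranks genes by size or p. The naming rule took up to 15 called genes a direction whose mean reached 5 TPM in the group with more, the called members of each list (at most 4) or else its 2 most abundant members, the 5 highest and lowest called genes of each difference between steps, 14 set genes, and, with fewer than 10 calls in a direction, the 10 smallest p-values there under the same minimum level. Other settings tried were the pseudocount, the filter, 3 scalings, the libraries in the fit, library weights, the replicate number as a block, each library left out, and, chosen after seeing the data, a skeletal muscle covariate and the removal of Con libraries 3 and 4 of 4 weeks. No 2 libraries were identical (r over all pairs 0.912 to 0.99). The depth is unknown, since TPM keeps no read totals. A result on 1 named gene is not reported here.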

Additional observations from a re-analysis of the deposited data

Results flagged for a closer look

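Single libraries lay far from the rest of their group in 10 of 222 groups of 5 tested for the named genes, about the 1 in 20 that chance gives. At 4 weeks 4 of these 5 were in replicate 2: Nr4a1 at 495 TPM (next 12.6), Mcm7 at 5.08 (next 4.61), Ctsd lowest at 748 (next 900) and Sypl2 lowest at 1.8 (next 4.02). The other was Fabp4 in replicate 4, at 21200 TPM (next 16100). At 2 weeks replicate 3 was highest for Mt2 at 224 TPM (next 83.2) and Mt1 at 539 (next 303). Replicate 1 was highest for Aldoa at 2340 TPM (next 1800) and replicate 4 for Pecam1 at 53.8 (next 35.8), and replicate 5 was lowest for Retn at 132 (next 219).

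The test of the difference between the CAC step and the Con step passed for Itih4 at 3.70 log2 units, and for Mb at -3.60, Padi2 at -3.56, Sypl2 at -3.02, Hspb6 at -2.93 and Asb2 at -2.92. These calls were lost without Con libraries 3 and 4 of 4 weeks.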

How the results depend on the processing

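The count of genes called between 4 and 2 weeks in CAC, 1 as reported, was 7 with no filter on low values, 3 after median-of-ratios rescaling, 13 after quantile normalization, and 0 when the fit held the compared groups alone or used library weights. It ranged from 0 to 3 as single libraries were left out. The Con step, with 3 calls, gave 44 with a pseudocount of 0.1, 22 with the 5 TPM filter, 5 with quantile normalization, and 0 with median-of-ratios rescaling, the mitochondrial genome removed, only the compared groups, the muscle covariate or Con libraries 3 and 4 left out, and 0 to 1952 as single libraries were left out. The difference between the CAC and Con steps, with 154 calls, gave 75 with the pseudocount of 0.1, 32 with the 5 TPM filter, 31 with median-of-ratios rescaling, 16 with quantile normalization, 2 with the mitochondrial genome removed, 57 with the replicate block, 0 with only the compared groups, the muscle covariate or Con libraries 3 and 4 left out, and 1 to 738 as single libraries were left out. The NCAC step and its difference from the CAC step gave 0 calls in each setting. The difference in mitochondrial share ranged from -0.75 to 0.15 points as single libraries were left out, and was above 0 without replicate 2 of 2 weeks (0.11) or of 4 weeks (0.15). The cause of these changes was not tested. Samples with the same replicate number deviated together in 2 of 5 pairs (r over 0.1), and 1 of 5 correlated best with its own number. The replicate block left the CAC count at 1 and Itih4 called (adjusted p = 0.0252), but its difference from the Con step was not called under the block (adjusted p = 0.0532). Itih4 lost its call when the fit held the compared groups alone (adjusted p = 0.54) and with library weights (log2 difference 2.14, adjusted p = 0.138). TPM keeps no depth, so low values carry an unknown counting error.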
